A study of Mus musculus with 6 samples.

Results

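Rgs16, a regulator of G protein signalling, was set against 9 subunits of heterotrimeric G proteins in disome profiles of mouse liver. The 10 genes were taken by Ensembl identifier out of 8941 genes listed, and all 10 had a mean of at least 1 RPKM (reads per 1 kb of coding length, scaled for each library). They comprise Rgs16, the 7 alpha subunits Gnai3, Gnai2, Gna12, Gna13, Gnaq, Gna11 and Gnas, and the beta subunits Gnb1 and Gnb2. Rgs16 was chosen for its values at ZT12 in these same libraries, so its course is given as a description with no test. The subunits were chosen by name, and their changes were tested.

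Livers came from male C57BL/6JRj mice of 11 to 12 weeks, an inbred laboratory strain with no genetic change or drug named in the labels, kept in 12 h of light and 12 h of dark. Zeitgeber time (ZT) counts the hours since the lights came on, and livers were collected at ZT0, ZT2 and ZT12. Each time point has 2 libraries, each made from the pooled lysates of 2 mice. All lysates held cycloheximide, which halts elongating ribosomes. A disome footprint is a stretch of messenger RNA that 2 adjoining ribosomes protect from nuclease digestion, so its level depends on the amount of the messenger RNA, on how often it is translated and on how often its ribosomes collide. Neither total RNA nor single-ribosome footprints were analysed here, and these cannot be told apart. In whole liver, fewer cells of a type and less RNA per cell cannot be told apart either.

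The deposited tables give identifiers without symbols. The names of the 10 genes came with the list of identifiers. The reference table used here matched 0 of 8941 identifiers, so other RGS genes, receptors, effectors and the remaining G protein subunits were not analysed here, and the liver label was not checked against marker genes. The RPKM values were whole multiples of the value of 1 read, which gave back the reads behind each value. Recovered reads totalled 6346387 to 12322651 per library, the highest 2 totals being those of ZT12, and 97 and 250 genes were listed at 0 in the ZT2 libraries, against 4 to 52 in the others. The recovered gene lengths matched between paralogs of equal size, with 1077 nucleotides for both Gnaq and Gna11 and 1020 for both Gnb1 and Gnb2, while Rgs16 had 603.

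Heterotrimeric G proteins relay signals from receptors in the cell membrane. An activated receptor makes the alpha subunit exchange GDP for GTP, which frees it from the beta and gamma subunits, and both parts then act on effectors until the alpha subunit hydrolyses its GTP. RGS proteins speed up that hydrolysis and so shorten the signal, and Rgs16 acts on alpha subunits of the Gi and Gq classes. In hepatocytes the Gs class couples the glucagon receptor to cyclic AMP, the Gq class couples vasopressin and alpha1-adrenergic receptors to calcium release, and hepatic Rgs16 messenger RNA is known to follow feeding and the time of day.

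Rgs16 (ENSMUSG00000026475) was low in 3 of the 4 libraries of ZT0 and ZT2, near the middle of all genes in the other, ZT2 replicate 2, and among the better covered genes at ZT12. It had 0.235 and 1.94 RPKM in the ZT0 libraries, 0 and 5.16 in those of ZT2, and 73.4 and 157 in those of ZT12. Both ZT12 libraries lay far above the other 4, while the ZT0 and ZT2 libraries overlapped. These values rested on 1 and 9 reads at ZT0, on 0 and 24 reads at ZT2, and on 580 and 1170 reads at ZT12. In ZT2 replicate 1, where no read was found, a count of 0 allows up to 3 reads, or 0.806 RPKM. In rank among the 8941 genes listed, Rgs16 moved with this: 0.95% and 19.72% of genes were lower in the ZT0 libraries, 0% and 42.22% in the ZT2 libraries, and 86.75% and 91.98% in the ZT12 libraries.

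**Figure D1:**
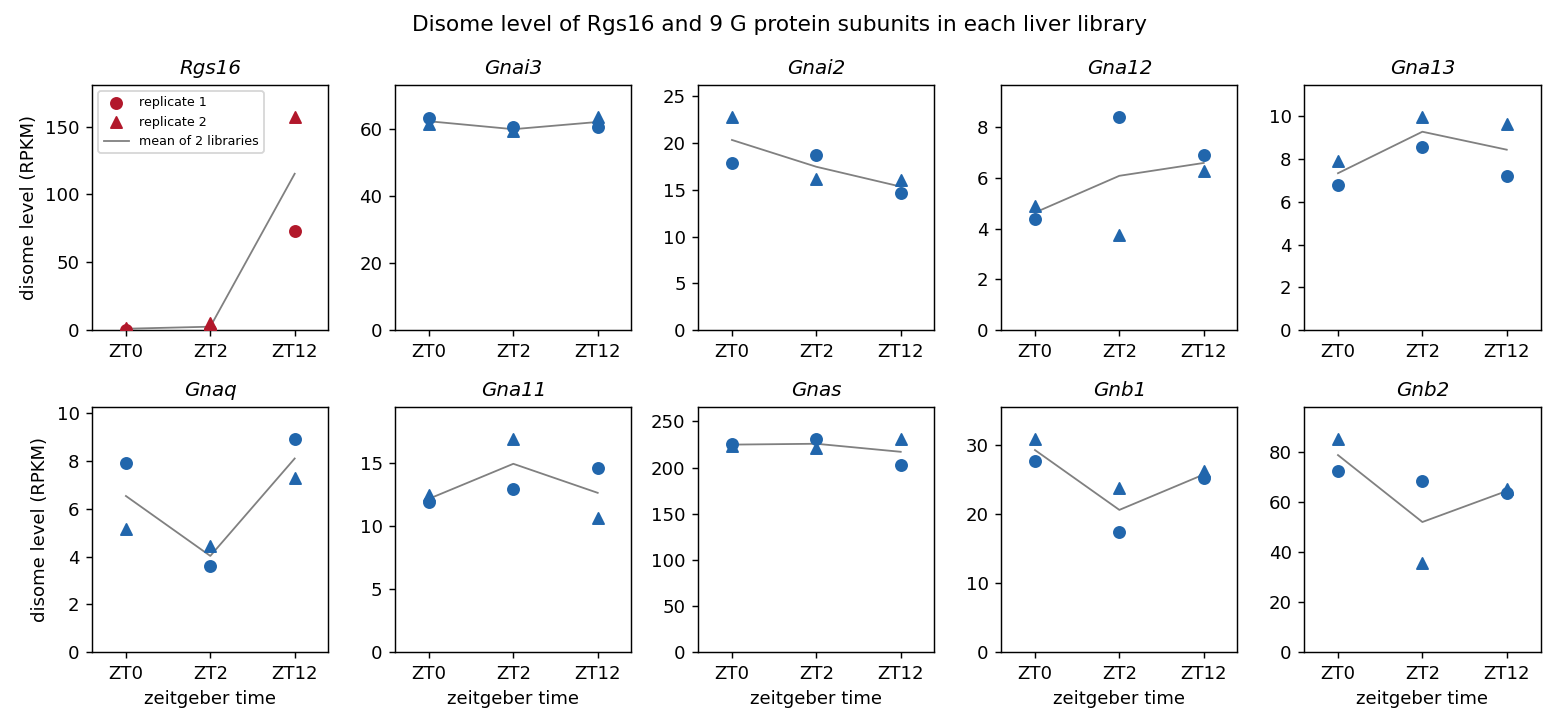
Disome level in RPKM of Rgs16 and the 9 G protein subunits at ZT0, ZT2 and ZT12, each panel with its own axis from 0. Circles are replicate 1, triangles replicate 2 and the line joins the means of the 2 libraries. Rgs16 reached 73.4 and 157 RPKM at ZT12, whereas Gnai3 stayed between 59.5 and 63.7 RPKM in every library.

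Mean Rgs16 was 115 ± 59.2 RPKM at ZT12 and 1.09 ± 1.20 RPKM at ZT0 (SD, n = 2 each), a ratio of means of 106. Counted on reads summed per time point and scaled by library, the ratio of ZT12 to ZT0 was 101, from 1750 reads at ZT12 and 10 reads at ZT0. The same ratio was 39.8 for ZT12 over ZT2, from 1750 and 24 reads. For ZT2 over ZT0 it was 2.55, but all 24 reads of ZT2 came from 1 library. The libraries of a time point differed widely for this gene: replicate 2 had 8.23 times the level of replicate 1 at ZT0 and 2.14 times at ZT12. The ratio at ZT0 rests on 9 reads against 1. Counting error was not separated there from a difference between pools.

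On the log2(RPKM + 1) scale, which understates the change of low genes, Rgs16 changed by 5.83 for ZT12 minus ZT0, by 5.45 for ZT12 minus ZT2 and by 0.38 for ZT2 minus ZT0. The standard error was 0.85 in each with 1 RPKM added before the log, 1.77 with 0.1 RPKM and 0.43 with 5 RPKM. The change for ZT2 minus ZT0 turned negative without ZT2 replicate 2 (-0.93) and without ZT0 replicate 1 (-0.24). The values for ZT12 minus ZT0 and ZT12 minus ZT2 were the largest rises among 8355 genes, with 3.82 and 4.30 for the genes next in order, and it was this position that led to the choice of Rgs16. The sizes moved with the pseudocount, to 4.23 and 3.98 with 5 RPKM and to 7.02 and 7.21 with 0.1 RPKM added before the log.

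Promoter windows of 250 bases before to 50 bases after each annotated start came from RefSeq (GRCm38.p6), which held 12 windows for 9 of the 10 genes, 4 of them for Gnas. The windows of Rgs16, the member that varied most, and of Gnai3, the one that varied least with the deposited scaling, are shown 5′ to 3′ so that the extremes can be set side by side. Capitals mark the searched motifs that were found.
Rgs16, chr1:153740103-153740402, plus strand: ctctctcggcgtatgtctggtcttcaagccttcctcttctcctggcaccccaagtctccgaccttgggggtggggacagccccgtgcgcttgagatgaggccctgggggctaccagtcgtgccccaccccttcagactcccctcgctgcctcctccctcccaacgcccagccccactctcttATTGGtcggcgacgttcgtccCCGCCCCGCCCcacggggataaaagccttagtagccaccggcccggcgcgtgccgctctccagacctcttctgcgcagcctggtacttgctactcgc
Gnai3, chr3:108146103-108146402, minus strand: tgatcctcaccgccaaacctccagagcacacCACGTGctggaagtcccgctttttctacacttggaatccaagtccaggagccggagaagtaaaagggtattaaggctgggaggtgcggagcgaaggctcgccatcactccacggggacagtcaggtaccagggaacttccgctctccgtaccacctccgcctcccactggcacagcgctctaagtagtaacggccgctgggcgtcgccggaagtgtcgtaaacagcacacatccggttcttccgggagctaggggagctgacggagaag
Motifs of 7 kinds were searched on both strands of all 32851 windows in the table. The E-box CACGTG, bound by CLOCK and BMAL1 and by other factors, was in 7.15% of all windows, and its variant CACGTT in 4.68%. The PAR bZIP site TTATGTAA, bound by factors such as DBP, was in 0.938%. The nuclear receptor site AGGTCA was in 16.3%, the CCAAT motif in 37.4%, the GC box GGGCGG in 35.7% and the TATA motif TATAAA in 13.6%. In the Rgs16 window a CCAAT motif lay 68 bases before the start, on the opposite strand as ATTGG. GC boxes, on the opposite strand as CCGCCC, lay 47 and 42 bases before the start and shared 1 base, and none of the other 5 motifs was among the letters of that window. The Gnai3 window held the E-box, 219 bases before the start, and none of the other 6 motifs. Of the 12 member windows, 2 held the E-box (those of Gnai3 and Gna13), 1 its variant (Gnb2), 0 the PAR bZIP site, 1 the nuclear receptor site (Gnb1), 5 CCAAT, 9 the GC box and 3 the TATA motif, all of Gnas. A pair of the Gnas windows overlap almost wholly, so that 1 CCAAT and 1 TATA site are counted in both. These matches describe the sequence and say nothing about binding.

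None of the 9 subunits passed the test in any comparison. The test was limma on log2(RPKM + 1), with p-values adjusted by Benjamini-Hochberg over 8355 genes and a threshold of 0.05. It called 0 of 9 subunits for ZT2 against ZT0, where 0.0239% of all tested genes were called, 0 of 9 for ZT12 against ZT0, where 0.946% were called, and 0 of 9 for ZT12 against ZT2, where 2.06% were called. Each count of 0 of 9 therefore lay near the background. At an unadjusted p of 0.05 limma counted 0, 0 and 1 subunits in the same order of comparisons, beside 13.7%, 14.5% and 19.2% of all tested genes, and voom on the recovered reads called 0 in each at the adjusted threshold. The median absolute log2 change of the subunits was 0.26 for ZT2 minus ZT0, beside 0.30 for all tested genes. It was 0.18 for ZT12 minus ZT0, beside 0.30, and 0.18 for ZT12 minus ZT2, beside 0.34. The subunits also had a higher median level, 17.7 RPKM beside 8.63 for all tested genes. These changes were not set against genes of like level.

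**Figure D2:**
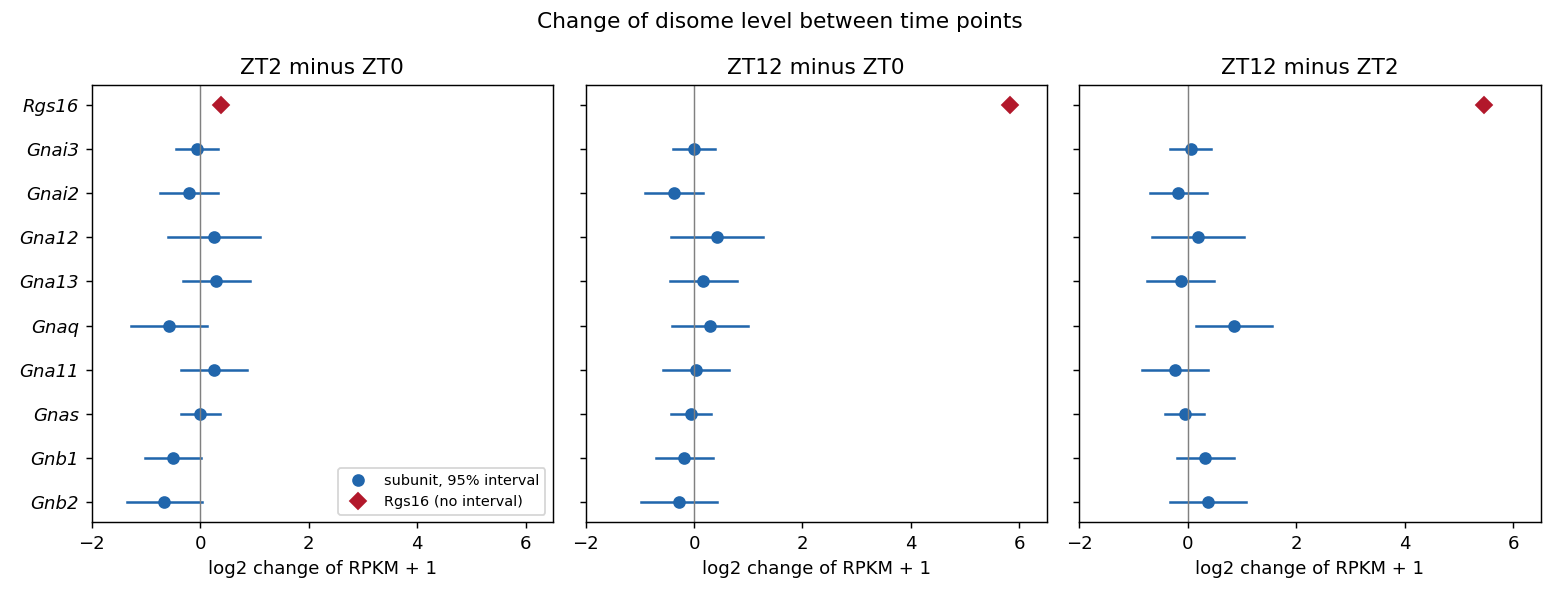
Change of log2(RPKM + 1) between time points for Rgs16 (diamonds, no interval) and the 9 subunits (circles with 95% intervals from the limma fit over 6 libraries). The subunits lie between -0.66 (Gnb2, ZT2 minus ZT0) and 0.86 (Gnaq, ZT12 minus ZT2), and that of Gnaq is the only interval that does not cross 0, while Rgs16 lies at 5.83 and 5.45 in the comparisons with ZT12.

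Among the Gi class, which inhibits adenylyl cyclase and is acted on by Rgs16, Gnai3 (ENSMUSG00000000001) varied little with the deposited scaling. It had 63.3 and 61.4 RPKM in the ZT0 libraries, 60.6 and 59.5 in those of ZT2, and 60.7 and 63.7 in those of ZT12, from 397 to 844 reads. The highest library was 1.07 times the lowest. Its log2 change for ZT12 minus ZT0 was -0.01, with a 95% interval from 0.763-fold to 1.30-fold and a limma adjusted p of 0.99, and it was 0.07 with every library set to the same total and 0.11 after quantile normalization. For ZT2 minus ZT0 it was -0.05 as deposited and -0.14 with the same total, and for ZT12 minus ZT2 it was 0.05 and 0.21. Gnai2 (ENSMUSG00000032562) had 17.9 and 22.8 RPKM in the ZT0 libraries, 18.7 and 16.2 in those of ZT2, and 14.6 and 16.0 in those of ZT12. Its ZT12 libraries lay below all 4 others, and the mean was 15.3 ± 1.01 RPKM at ZT12 and 20.3 ± 3.48 RPKM at ZT0 (SD, n = 2 each). The log2 change was -0.38 (95% interval -0.91 to 0.16), and the limma adjusted p was 0.51, the smallest of the 9 subunits in that comparison.

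The Gq class, which activates phospholipase C and is likewise acted on by Rgs16, held the subunit with the largest change. Gnaq (ENSMUSG00000024639) had 7.91 and 5.18 RPKM in the ZT0 libraries, 3.61 and 4.46 in those of ZT2, and 8.93 and 7.29 in those of ZT12. Both ZT2 libraries were below the other 4, on 24 and 37 reads. For ZT12 minus ZT2 the log2 change was 0.86 (95% interval 0.16 to 1.56), with an unadjusted limma p of 0.023 and an adjusted p of 0.19, so it did not pass. Its close relative Gna11 (ENSMUSG00000034781) had 11.9 and 12.4 RPKM in the ZT0 libraries, 12.9 and 16.9 in those of ZT2, and 14.6 and 10.6 in those of ZT12. The ZT12 libraries of Gna11 spanned both ZT0 libraries, and its log2 change for ZT12 minus ZT2 was -0.23 with a limma adjusted p of 0.67.

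Gnas (ENSMUSG00000027523), which encodes the Gs alpha subunit that activates adenylyl cyclase, had the highest level of the 9 subunits in every library. It had 226 and 224 RPKM in the ZT0 libraries, 231 and 221 in those of ZT2, and 203 and 231 in those of ZT12, from 1683 to 3370 reads. The ZT12 libraries spanned all 4 others. The log2 change for ZT12 minus ZT0 was -0.05, with a 95% interval from 0.750-fold to 1.24-fold, and it was 0.03 with every library set to the same total. The Gnas locus gives rise to several transcripts, and the recovered length behind its RPKM was 1182 nucleotides.

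The G12/13 class had the lowest mean summed level of the alpha classes, with 14.1 RPKM beside 19.4 for Gq. Among all genes listed its members lay nearer the middle. Over the libraries, 35.0% to 52.72% of genes were lower than Gna12 and 48.06% to 56.77% lower than Gna13. Gna12 (ENSMUSG00000000149) had 4.37 and 4.91 RPKM in the ZT0 libraries, 8.41 and 3.76 in those of ZT2, and 6.92 and 6.27 in those of ZT12, from 33 to 103 reads. Its ZT2 libraries held both the highest and the lowest of its 6 values. Gna13 (ENSMUSG00000020611) had 6.78 and 7.91 RPKM in the ZT0 libraries, 8.59 and 9.98 in those of ZT2, and 7.22 and 9.67 in those of ZT12. Limma adjusted p-values of both genes were 0.64 or more in each comparison.

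The beta subunits, which pair with gamma subunits and bind the inactive alpha subunit, were at their lowest mean at ZT2. Gnb1 (ENSMUSG00000029064) had 27.7 and 30.9 RPKM in the ZT0 libraries, 17.5 and 23.8 in those of ZT2, and 25.2 and 26.3 in those of ZT12. The time points of Gnb1 did not overlap. Its log2 change for ZT2 minus ZT0 was -0.50 (95% interval -1.02 to 0.02), with a limma adjusted p of 0.38. Gnb2 (ENSMUSG00000029713) had 72.2 and 85.1 RPKM in the ZT0 libraries, 68.3 and 35.6 in those of ZT2, and 63.5 and 65.2 in those of ZT12. The value of 35.6 RPKM stood apart from the other 5 and belongs to ZT2 replicate 2, the library with 250 genes listed at 0, whose part in this value was not tested. The log2 change of Gnb2 for ZT2 minus ZT0 was -0.66 with a limma adjusted p of 0.39. Without ZT2 replicate 1 it was -1.12 with a limma adjusted p of 0.042, the 1 setting in which a subunit passed, and without ZT2 replicate 2 it was -0.20. Without ZT2 replicate 1, that time point is represented by replicate 2 alone, which is assumed to vary like the other time points, and 248 of 8355 genes were called. Summed over both beta subunits, the level was 99.9 and 116 RPKM in the ZT0 libraries, 85.8 and 59.4 in those of ZT2, and 88.7 and 91.5 in those of ZT12, with both ZT2 libraries the lowest.

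Non-overlap between time points was common among all genes and so says little about the subunits. For ZT2 and ZT0 the libraries of 6 of 9 subunits did not overlap, beside 46.4% of all tested genes. Gna13 and Gna11 were the 2 higher at ZT2 (beside 21.5% of all tested genes), and Gnai3, Gnaq, Gnb1 and Gnb2 the 4 lower (beside 24.9%). For ZT12 and ZT0 they were 4 of 9, beside 54.4%, with Gna12 higher at ZT12 (beside 26.6%) and Gnai2, Gnb1 and Gnb2 lower (beside 27.8%). For ZT12 and ZT2 they were again 4 of 9, beside 45.9%, with Gnai3, Gnaq and Gnb1 higher at ZT12 (beside 23.6%) and Gnai2 lower (beside 22.3%). The comparisons share libraries of each time point, so these counts are not independent of each other.

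RPKM is a level per length, so levels of different genes can be set beside each other as disome densities. Such densities also depend on how often the ribosomes of each messenger RNA collide, which length does not correct for. Over the 6 libraries the order of mean levels was Gnas with 223 ± 10.3 RPKM, Gnb2 with 65.0 ± 16.3, Gnai3 with 61.5 ± 1.66, Gnb1 with 25.2 ± 4.51, Gnai2 with 17.7 ± 2.87, Gna11 with 13.2 ± 2.22, Gna13 with 8.36 ± 1.30, Gnaq with 6.23 ± 2.11 and Gna12 with 5.77 ± 1.75 (SD, n = 6). Gnas stood above Gnb2, Gnai3 above Gnb1, and Gna11 above Gna13 in 6 of 6 libraries. The other neighbours changed places in at least 1 library: Gnb2 was above Gnai3, Gnb1 above Gnai2, Gnai2 above Gna11, and Gnaq above Gna12 in 5 of 6, and Gna13 was above Gnaq in 4 of 6. The order within these 5 pairs was therefore not the same in every library, and their differences were not tested. Gs alone made up 66.3% ± 1.08 of the summed level of the 7 alpha subunits, Gi 23.6% ± 0.771, Gq 5.82% ± 0.979 and G12/13 4.21% ± 0.601 (SD, n = 6).

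Within each pair of close paralogs, the same member was higher in 6 of 6 libraries. The ratio of Gnai3 to Gnai2 was 3.55 ± 0.524, that of Gnb2 to Gnb1 2.63 ± 0.771, that of Gna11 to Gnaq 2.39 ± 1.06 and that of Gna13 to Gna12 1.57 ± 0.591 (SD, n = 6). The Gna11 to Gnaq ratio was 1.50 and 2.40 in the ZT0 libraries, 3.58 and 3.78 in those of ZT2, and 1.63 and 1.45 in those of ZT12, so that both ZT2 libraries were above the other 4. How reads that map to more than 1 gene were treated is not given in the sources used here, and levels of such paralogs are uncertain to that extent.

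Rgs16 changed place among these genes between time points. All 9 subunits were above Rgs16 in both ZT0 libraries and in ZT2 replicate 1, and 7 of 9 in ZT2 replicate 2. In both ZT12 libraries only 1 of 9, Gnas, was above it. The summed level of the 4 Gi and Gq alpha subunits, the classes Rgs16 acts on, was 101 and 102 RPKM in the ZT0 libraries, 95.8 and 97.0 in those of ZT2, and 98.8 and 97.6 in those of ZT12. With the deposited scaling the 6 sums lay within a narrow band, with a mean of 98.7 ± 2.33 RPKM (SD, n = 6). They were not taken under other scalings. The log2 change of Gnai3, their largest member, for ZT12 minus ZT2 was 0.05 as deposited and 0.21 with every library set to the same total. The ratio of Rgs16 to that sum was 0.00233 and 0.0190 in the ZT0 libraries, 0 and 0.0532 in those of ZT2, and 0.743 and 1.61 in those of ZT12. Relative to all 7 alpha subunits, Rgs16 averaged 0.00321 ± 0.00355 in the ZT0 libraries, 0.00779 ± 0.0110 in those of ZT2 and 0.344 ± 0.158 in those of ZT12 (SD, n = 2 each). With the deposited scaling the alpha sums ran from 316 to 344 RPKM over the 6 libraries. These are ratios of disome density, not of protein.

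**Figure D3:**
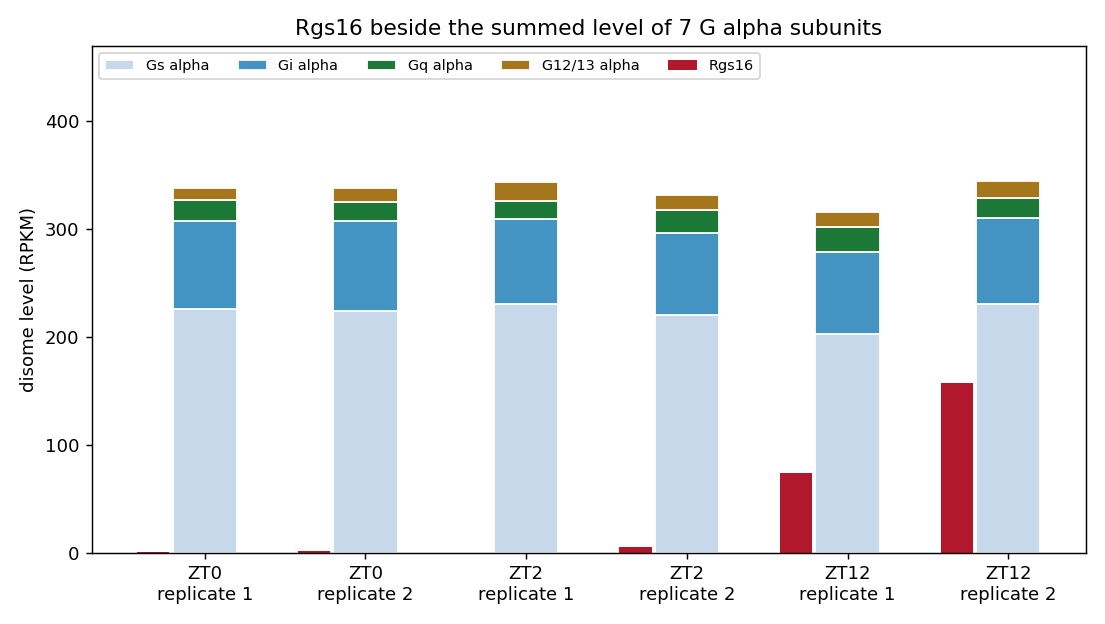
Disome level in RPKM of Rgs16 (narrow red bars) beside the summed level of the 7 G alpha subunits (wide bars stacked by class), for each library from ZT0 to ZT12. The stacked sums stay between 316 and 344 RPKM with the deposited scaling. The Rgs16 bar is at 5.16 RPKM or less in the ZT0 and ZT2 libraries and at 73.4 and 157 RPKM in the ZT12 libraries.

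The subunits differed in how much they varied. The SD of log2(RPKM + 1) over the 6 libraries was 0.038 for Gnai3, the 3rd smallest of 8355 tested genes, and 0.068 for Gnas, the 17th smallest, beside a median of 0.35 over all tested genes. Among the 1268 tested genes within 2-fold of the level of Gnai3, the median SD was 0.29. The variance of Gnai3 reads was 0.44 times what counting error alone gives, whereas it was 6.64 times for Gnas and 2.10 to 6.33 times for Gnai2, Gna11, Gna12, Gna13, Gnaq and Gnb1. It was 32.3 times for Gnb2 and 472 times for Rgs16. The place of Gnai3 depends on the scaling: its SD was 0.10 and the 73rd smallest with every library set to the same total, and 0.069 and the 22nd smallest after quantile normalization. Gnas was the 33rd and the 7th smallest in these settings. The SD of Rgs16 was 3.08 as deposited, and it was the 2nd largest of 8355 under each of the 3 scalings. Rgs16 was chosen for its values at ZT12 in these same libraries, so its large spread follows from that choice.

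**Figure D4:**
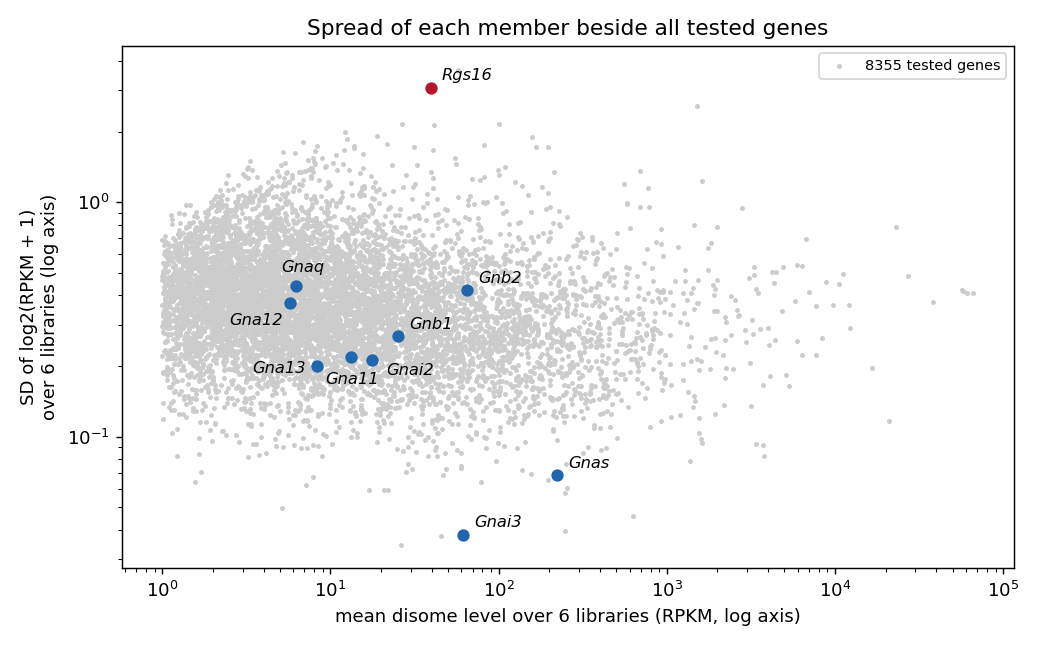
SD of log2(RPKM + 1) over the 6 libraries against mean RPKM, both on log axes, for 8355 tested genes (grey), Rgs16 (red) and the 9 subunits (blue). Rgs16, chosen for its values at ZT12, lies at the top with 3.08. Gnai3 (0.038) and Gnas (0.068) lie at the bottom, and the other 7 subunits within the body of genes.

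The course of each subunit was also set beside that of Rgs16. Pearson's r of log2(RPKM + 1) with Rgs16 over the 6 libraries was highest for Gnaq at 0.59 and lowest for Gnai2 at -0.65. As a description, 162 of the 8354 other tested genes had an r above 0.9, and no subunit did. So high an r was rare among all genes. Its absence among the subunits therefore lay near the background and says little about them. The 5 most like Rgs16 had an r of 0.986 to 0.991. All 5 had their 2 highest values at ZT12, which follows from ranking genes by their likeness to Rgs16. ENSMUSG00000033991 was first, with 4.48 and 4.92 RPKM in the ZT0 libraries, 4.53 and 4.92 in those of ZT2, and 6.22 and 6.62 in those of ZT12. ENSMUSG00000058239 was second, with 3.01 and 3.25, 2.34 and 4.00, and 7.28 and 7.49 RPKM at the same times. Both shared the shape of Rgs16 but a far smaller range. All points share their library and its scaling, and the files do not pair these identifiers with names.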

How the data were processed

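The authors deposited 1 table of RPKM values per library, with a scaling that the tables do not state. The submitters' processing notes list the tools edgeR, StringTie, STAR, cutadapt, CASAVA 1.82 and Bowtie2 2.3.0 and the builds mm10 and GRCm38.p2. Which tool did what, the annotation and the gene filter stand in none of the sources used here. Whole reads were recovered for 8901 of 8941 genes (99.55%) from ratios between libraries, to a relative tolerance of 1e-11, and for the other 40 through their length. Of the 8901, the reads of 74 were then corrected by a whole factor through their length. The factor that scales each library was 0.997 to 1.01 times its upper quartile of reads. Recovered lengths were multiples of 3 for 95.16% of genes, so they are coding lengths.

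The 8355 genes whose mean reached 1 RPKM were tested on log2(RPKM + 1) in limma 3.58.1 (R 4.3.3), with 1 mean per time point over 6 libraries, 3 residual degrees of freedom, a variance trend and Benjamini-Hochberg adjustment over all genes. The members, lists and tests were chosen with earlier results of these data known. The rule for named genes took the 10 members, the 5 genes most like Rgs16 (2 are printed) and genes of fixed lists; the lists could not be matched and are left out. Libraries were treated as separate pools, and p-values cover the spread between pools only. The limit given for a count of 0 reads covers counting error only. Alternatives were the pseudocount, filter, scaling, variance prior, libraries in the fit, replicate block, threshold, voom and leaving out each library; other scalings of the spread were chosen after seeing the data.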

Additional observations from a re-analysis of the deposited data

How the results depend on the processing

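The alternatives kept the rise of Rgs16 toward ZT12 and left its ZT2 against ZT0 course unresolved. The log2 change for ZT12 minus ZT0 was 4.23 with a pseudocount of 5. For ZT12 minus ZT2 it was 7.21 with a pseudocount of 0.1, 3.98 with 5 and 6.82 with voom, and leaving out libraries in turn gave 4.14 to 6.76. For ZT2 minus ZT0 it ran from -0.93 to 1.69 when each library was left out, and was -0.19 with a pseudocount of 0.1. Without Gnas in the alpha sum, Rgs16 over that sum averaged 0.00950 in the ZT0 libraries, 0.0233 in those of ZT2 and 1.02 in those of ZT12. The number of subunits called was 0 in each comparison and setting except ZT2 against ZT0 with libraries left out in turn, where it ran from 0 to 1 (Gnb2, without ZT2 replicate 1). Of 459 subunit values under alternatives, 426 stayed within 1 replicate SD. Many of these could not move. The filter, variance trend, variance prior, replicate block and libraries outside a comparison leave the fitted log2 change as it is. The 426 therefore says little about stability. Signs changed for 19 values, none above 0.38 in size on the log2 scale in either setting, and the cause was not tested. With every library at the same total, the median of all genes was -0.11 for ZT2 minus ZT0 and 0.17 for ZT12 minus ZT2, and no subunit was called.

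The numbers of libraries did not pair them (correlations of deviations -0.076, -0.019 and 0.018). With the replicate number as a block, 0 subunits were called in each comparison. Each time point holds both replicate numbers, so the block cannot move a fitted change, and that of Rgs16 for ZT12 minus ZT0 stayed at 5.83. The standard error of Rgs16 did move, from 0.85 to 0.42. For Rgs16, replicate 2 was above replicate 1 at each time point. Over all genes, the 2, 79 and 172 calls for ZT2 against ZT0, ZT12 against ZT0 and ZT12 against ZT2 became 2, 51 and 113 with that block, 1, 32 and 80 without the variance trend, 9, 283 and 356 with voom, 1, 282 and 39 on the 4 libraries compared, and 8, 179 and 423 at an adjusted p of 0.1. In the same order they were 3, 124 and 203 with a filter at 5 RPKM, and 6, 64 and 132 with a pseudocount of 0.1. The ZT0 and ZT2 levels of Rgs16 rest on 0 to 24 reads per library, which limits their precision.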

Other observations

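The 2 ZT12 libraries differed more for Rgs16 than for any of the 9 subunits. Replicate 2 had 2.14 times the Rgs16 level of replicate 1, and for the subunits the same ratio ran from 0.726 for Gna11 to 1.34 for Gna13. Of all tested genes, 3.94% (329 of 8355) differed between these libraries by at least as much on the log2(RPKM + 1) scale. At ZT0, where Rgs16 rested on 1 and 9 reads, 0.575% of tested genes were as far apart. At ZT2, with 0 and 24 reads, 0.694% were as far apart. The median gene listed had 67 to 81 reads in the ZT0 and ZT2 libraries. Genes with few reads differ more by counting error, and no share among genes of like level was taken. The animals pooled in each library differ, and what sets the libraries of a time point apart was not tested.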
